A study of Mus musculus with 12 samples.

Results

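Of the 25210 genes in the deposited expression table of CHIR99021-treated mouse mammary organoids, 23 were taken here for a level at 1.5 µM that exceeded both the level without the compound and the level at 3 µM by a set margin in every culture. The rule was applied to the deposited values, log2(counts per 10 M + 1), where M is mega. A gene was taken when, in each of 3 cultures, its 1.5 µM value exceeded both the DMSO value and the 3 µM value of the same culture by at least 0.7, and when its mean 1.5 µM value was at least 5. Wif1 and genes whose symbols start with Krt, Col, Itg, Lce, Serpinb or Klk were left out, which removed 2 of 25 genes that met the rule. The organoids came from the mammary glands of virgin female FVB/N mice aged 8-11 weeks, an inbred strain, and grew in growth-factor reduced Matrigel in minimal medium. All groups shared this background and differed only in the treatment, which was DMSO, the vehicle, or CHIR99021 at 1, 1.5 or 3 µM for 7 days. Cultures 1, 2 and 3 were each derived from a different animal and each was split over the 4 treatments, so that a group has 3 libraries, its replicates 1, 2 and 3, and a culture has 4.

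CHIR99021 inhibits GSK3, a kinase of the destruction complex that keeps β-catenin low. When GSK3 is blocked, β-catenin accumulates, enters the nucleus and acts with TCF/LEF factors on WNT target genes. In ectoderm-derived tissues such as skin and mammary gland, WNT signalling takes part in placode formation, in the maintenance of progenitor cells and in hair and glandular fate, and its effect on a tissue depends on how strongly it is driven. A dose series therefore asks which genes keep rising with the dose and which have their maximum at an intermediate dose.

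The 23 genes were chosen by their values in the DMSO, 1.5 µM and 3 µM libraries, so the differences of 1.5 µM from DMSO and from 3 µM are descriptions and carry no test. The margin of a gene is the smallest of its 6 differences, 2 in each culture. Margins ran from 2.07 log2 units for Oas1f down to 0.811 for Slc2a9, 0.724 for Barx2 and 0.703 for Sox11, the 3 genes just inside the limit. Tspan2 (0.698), Mfsd2b (0.691) and Shisa2 (0.688) lay just outside it. Another 39 genes met the margin but had a mean 1.5 µM value under 5, against 12006 genes in the table that reached that mean. In 16 of the 23 genes every 1.5 µM library lay above every DMSO and every 3 µM library, also across cultures. Over all 12006 genes this was so for 8.21%, and nothing is read from it because the rule used these libraries. Not fixed by the rule are the 1 µM libraries, the order of 3 µM and DMSO, and differences between cultures, and the tests are on these.

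Libraries held 10.1 to 24.5 M counts, and 1 count corresponds to between 0.408 and 0.987 per 10 M. The summed level of 6 epithelial markers (Epcam, Cdh1, Krt8, Krt18, Krt14 and Krt5) was 31781 to 58500 per 10 M in DMSO and 149488 to 278285 at 3 µM, and each of the 6 was detected in every library. Krt14 and Krt5 carried this difference (log2 fold changes of 3.84 ± 0.36 and 3.42 ± 0.32 SE at 3 µM against DMSO), while Krt8 and Krt18 fell by 0.75 and 0.48 on the log2 scale (edgeR adjusted p = 0.0137 and 0.0115) and Epcam (0.37 ± 0.23) and Cdh1 (0.40 ± 0.24) were not called. Markers of other cells were also present. The 12 fibroblast markers summed to 0.266% of counts in DMSO in culture 1, 0.954% in culture 2 and 2.33% in culture 3, and to 0.0291%, 0.121% and 0.485% at 3 µM. The 9 macrophage or leukocyte markers summed to between 2734 and 28369 per 10 M in DMSO, 2989 and 21744 at 1 µM, 1511 and 6880 at 1.5 µM and 343 and 1160.0 at 3 µM, with the T cell marker Cd3e at 0 in all 3 libraries at 1.5 µM. The 5 adipocyte markers had medians of 52300, 29179, 11235 and 1088. In bulk RNA, fewer cells of a type and less RNA per cell cannot be told apart.

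The 23 genes lie on 15 chromosomes, and 21 are listed as protein coding in the deposited table. The other two, 4930431P03Rik and 2810468N07Rik, are listed there as processed transcripts, and GENCODE M21 lists the latter as antisense. Upstream sequences of the RefSeq gene starts (GRCm38.p6) were found for 17 of the 23. Motifs were searched on both strands of the 250 bases before the start. They were the TCF/LEF-type strings CTTTGAA and CTTTGAT, the E-box string CACGTG, the AP-1-type string TGACTCA and the TATA-type string TATAAA. The variant CTTTGAT was present upstream of Flg2 and Mill1, and in 3.21% of all 32851 RefSeq promoters of the same length. TGACTCA was present upstream of Slc2a9 and Tmprss11f, and in 4.46% of all promoters. TATAAA was present upstream of Arhgef38 and Skint8 (12.4% of all promoters). CTTTGAA (4.46% of all promoters) was in none of the 17, and neither was the E-box string CACGTG (6.02%). A match is a string of letters and not a binding site. The 4 upstream regions that hold a TCF/LEF-type or AP-1-type string are shown because these factors respond to WNT and growth signals, and that of Sprr4 because it is the gene nearest to Flg2 within the set and holds none of the 5 strings. Each is written 5′ to 3′ on the strand of the gene, ends 1 base before the RefSeq start and has the matched string, or its reverse complement, in capitals.
Flg2 (chr3:93197023-93197272, plus strand): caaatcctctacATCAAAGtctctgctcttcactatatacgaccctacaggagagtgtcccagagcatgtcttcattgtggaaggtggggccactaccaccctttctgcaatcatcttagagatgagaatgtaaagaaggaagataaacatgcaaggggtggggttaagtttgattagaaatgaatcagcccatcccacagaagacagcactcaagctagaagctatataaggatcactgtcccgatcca
Mill1 (chr7:18245097-18245346, plus strand): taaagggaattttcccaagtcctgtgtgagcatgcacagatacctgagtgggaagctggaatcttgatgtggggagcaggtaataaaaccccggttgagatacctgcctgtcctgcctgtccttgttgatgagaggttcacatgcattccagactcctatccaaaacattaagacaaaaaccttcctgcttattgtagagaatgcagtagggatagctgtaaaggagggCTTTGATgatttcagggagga
Slc2a9 (chr5:38483386-38483635, minus strand): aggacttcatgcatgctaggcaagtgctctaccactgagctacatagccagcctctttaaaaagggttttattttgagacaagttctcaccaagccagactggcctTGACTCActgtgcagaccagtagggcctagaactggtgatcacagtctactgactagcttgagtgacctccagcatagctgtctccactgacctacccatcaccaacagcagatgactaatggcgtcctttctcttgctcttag
Tmprss11f (chr5:86632425-86632674, minus strand): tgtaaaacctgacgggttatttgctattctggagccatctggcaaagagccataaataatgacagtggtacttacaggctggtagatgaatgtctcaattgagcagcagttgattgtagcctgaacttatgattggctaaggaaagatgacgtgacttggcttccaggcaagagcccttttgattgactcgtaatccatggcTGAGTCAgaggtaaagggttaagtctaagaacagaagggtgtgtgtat
Sprr4 (chr3:92500494-92500743, minus strand): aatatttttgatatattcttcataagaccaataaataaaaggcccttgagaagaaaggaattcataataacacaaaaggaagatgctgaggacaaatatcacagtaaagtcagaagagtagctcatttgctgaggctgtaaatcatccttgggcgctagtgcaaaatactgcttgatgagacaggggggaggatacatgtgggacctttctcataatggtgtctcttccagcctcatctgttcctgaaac
The string starts 238 bases before the start of Flg2, 21 before that of Mill1, 144 before that of Slc2a9 and 48 before that of Tmprss11f. The RefSeq start of Slc2a9 used here lies inside the gene as the deposited table draws it, and that of Flg2 lies upstream of the table's start. The GC content of the 19 upstream regions of members had a median of 49.6%, against 52.4% over all promoters.

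**Figure D1:**
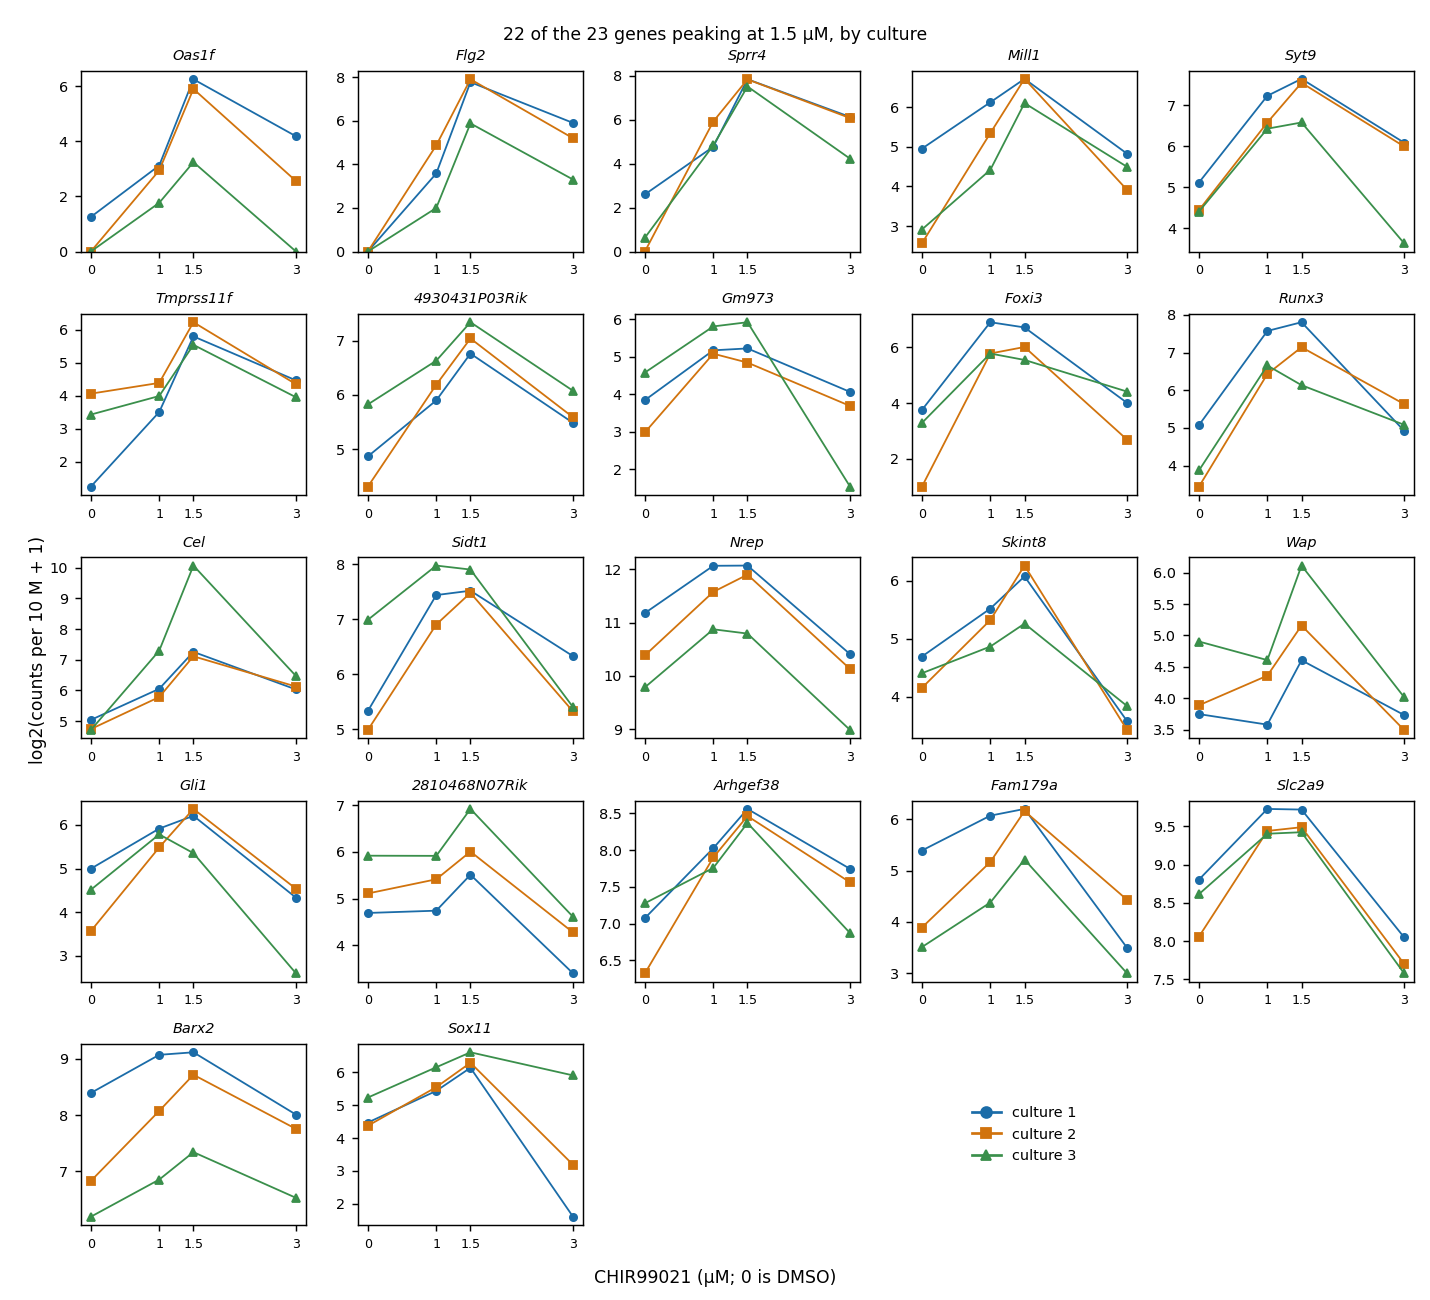
Deposited log2(counts per 10 M + 1) of 22 of the 23 genes (y axis, own scale per panel) against the CHIR99021 dose in µM (x axis, 0 is DMSO), with 1 line per culture. The 1.5 µM point lies above the DMSO and 3 µM points in every culture, as the rule requires, while the 1 µM point lies near the top of the curve for Foxi3, Slc2a9 and Nrep and near the DMSO point for Wap and 2810468N07Rik.

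Transcription factors make up 5 of the 23 genes. Values here and below are counts per 10 M in cultures 1, 2 and 3, in that order. Foxi3 (ENSMUSG00000055874, chr6:70956531-70961066), a forkhead factor of the placodes of hair and teeth, had 12.4, 0.987 and 8.74 in DMSO, 119, 54.0 and 54.0 at 1 µM, 104, 63.7 and 45.8 at 1.5 µM and 15.04, 5.41 and 20.3 at 3 µM. Its 1 and 1.5 µM libraries all lay above its DMSO and 3 µM libraries, and in 2 of 3 cultures the 1 µM library was the higher one. Runx3 (ENSMUSG00000070691, chr4:135120652-135177990), a Runt-domain factor best known from lymphocytes and sensory neurons, had 32.7, 9.87 and 13.6 in DMSO, 189.8, 85.4 and 100.1 at 1 µM, 223, 140.5 and 69.4 at 1.5 µM and 29.4, 48.7 and 32.9 at 3 µM. Again both intermediate doses stood clear of DMSO and of 3 µM. Gli1 (ENSMUSG00000025407, chr10:127329889-127341589), which is both an effector and a target gene of hedgehog signalling, had 30.9, 10.9 and 21.8 in DMSO, 59.2, 43.7 and 54.0 at 1 µM, 72.8, 81.3 and 39.8 at 1.5 µM and 19.1, 22.2 and 5.07 at 3 µM. In culture 3 its 1 µM library was above its 1.5 µM library.

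Barx2 (ENSMUSG00000032033, chr9:31846044-31913462), a homeobox factor of ectodermal and muscle development, had 335, 113 and 72.1 in DMSO, 537, 268 and 115 at 1 µM, 554, 419.8 and 161 at 1.5 µM and 256, 215 and 91.2 at 3 µM. Within each culture the 1.5 µM library was the highest, but culture 1 in DMSO lay above culture 3 at 1.5 µM, so the groups overlapped. Sox11 (ENSMUSG00000063632, chr12:27334264-27342574), a SoxC factor of embryonic progenitor cells, had 21.2, 19.7 and 36.6 in DMSO, 42.2, 45.8 and 70.2 at 1 µM, 69.3, 77.2 and 96.5 at 1.5 µM and 2.05, 8.12 and 58.9 at 3 µM. At 3 µM culture 3 lay above all DMSO libraries and cultures 1 and 2 lay below them.

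Squamous epithelium is the known site of 2 of the genes, and Tmprss11f is described with them. Flg2 (ENSMUSG00000049133, chr3:93200210-93220793), a filaggrin-family protein of the cornified layer, had 0 counts in all 3 DMSO libraries, then 11.0, 28.3 and 3.00 at 1 µM, 218, 239 and 57.9 at 1.5 µM and 58.8, 35.7 and 8.87 at 3 µM. A count of 0 allows up to 3 counts per library, so that the group means at 1, 1.5 and 3 µM were at least 7.06-fold, 86.0-fold and 17.3-fold higher than DMSO, counting error only. Sprr4 (ENSMUSG00000045566, chr3:92500263-92500493), a small proline-rich protein of the cornified envelope, had 5.07, 0 and 0.546 in DMSO, 26.3, 59.7 and 27.6 at 1 µM, 229, 228 and 182 at 1.5 µM and 69.0, 66.6 and 17.7 at 3 µM. All treated libraries of Flg2 and Sprr4 lay above all their DMSO libraries. Tmprss11f (ENSMUSG00000048764, chr5:86521898-86632424), a transmembrane serine protease, had 1.38, 15.8 and 9.83 in DMSO, 10.4, 20.1 and 14.99 at 1 µM, 54.9, 74.3 and 45.8 at 1.5 µM and 21.2, 19.5 and 14.6 at 3 µM. On the log2 scale its DMSO libraries were the most spread (SD 1.48, n = 3), with culture 1 far below cultures 2 and 3.

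Wap and Cel are products of the lactating gland. Wap (ENSMUSG00000000381, chr11:6635482-6638637), the whey acidic protein of rodent milk, had 12.4, 13.8 and 28.9 in DMSO, 11.0, 19.5 and 23.4 at 1 µM, 23.3, 34.7 and 68.2 at 1.5 µM and 12.3, 10.3 and 15.2 at 3 µM. Culture 3 was the highest in all 4 treatments, and its DMSO library exceeded the 1.5 µM library of culture 1. Cel (ENSMUSG00000026818, chr2:28555795-28563403), the bile-salt-dependent lipase that the pancreas and the lactating gland secrete, had 31.8, 25.7 and 25.1 in DMSO, 65.3, 54.0 and 156 at 1 µM, 152, 137 and 1073 at 1.5 µM and 64.3, 68.7 and 87.4 at 3 µM. The 1.5 µM value of culture 3 stood apart from the other two, while all treated libraries lay above all DMSO libraries.

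Oas1f, Mill1 and Skint8 have relatives or known roles in the immune system. Oas1f (ENSMUSG00000053765, chr5:120847367-120857986), of the oligoadenylate synthetase family that senses double-stranded RNA, had 1.38, 0 and 0 in DMSO, 7.68, 6.69 and 2.40 at 1 µM, 74.8, 58.4 and 8.44 at 1.5 µM and 17.1, 4.87 and 0 at 3 µM. These rest on few reads, with 3 counts over the DMSO libraries and 31, 266 and 34 counts over those at 1, 1.5 and 3 µM. Per library size the ratio to DMSO was 9.53 at 1 µM (95% exact counting interval 2.97 to 48.7), 79.9 at 1.5 µM (27.1 to 390.0) and 11.6 at 3 µM (3.66 to 59.1), and these intervals cover counting error only. Mill1 (ENSMUSG00000054005, chr7:18245347-18266092), a protein related to MHC class I molecules, had 30.0, 4.94 and 6.55 in DMSO, 68.6, 39.6 and 20.4 at 1 µM, 104, 104 and 67.6 at 1.5 µM and 27.3, 14.1 and 21.5 at 3 µM. Its 1.5 µM libraries overlapped no DMSO or 3 µM library but did overlap those at 1 µM.

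Skint8 (ENSMUSG00000078599, chr4:111919392-111950358) belongs to a family of membrane proteins of skin and thymus with immunoglobulin-like domains. It had 24.9, 16.8 and 20.2 in DMSO, 45.0, 39.1 and 28.2 at 1 µM, 66.6, 76.0 and 37.4 at 1.5 µM and 10.9, 9.74 and 13.3 at 3 µM, and its 3 µM libraries all lay below its DMSO libraries.

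Slc2a9, Sidt1 and Syt9 code for membrane transport or vesicle proteins. Slc2a9 (ENSMUSG00000005107, chr5:38349273-38503143), a urate transporter of the glucose transporter family, had 446, 266 and 391 in DMSO, 848, 694 and 677 at 1 µM, 843, 718 and 686 at 1.5 µM and 264, 207 and 190.1 at 3 µM. The 1 and 1.5 µM values differed by −0.02 ± 0.029 log2 units within a culture (mean ± SD, n = 3), and no group at these doses overlapped DMSO or 3 µM. Sidt1 (ENSMUSG00000022696, chr16:44240180-44333196), of the SID1 family of nucleic acid transporters, had 39.2, 30.6 and 126 in DMSO, 173, 119 and 251 at 1 µM, 183, 178 and 239 at 1.5 µM and 79.3, 39.0 and 41.2 at 3 µM. Syt9 (ENSMUSG00000062542, chr7:107370728-107548656), a synaptotagmin that couples calcium to vesicle release, had 33.6, 20.7 and 20.2 in DMSO, 149, 94.6 and 85.1 at 1 µM, 199, 186 and 94.7 at 1.5 µM and 67.0, 62.8 and 11.4 at 3 µM. For both Sidt1 and Syt9 the 3 µM library of culture 3 lay below the DMSO library of that culture, while those of cultures 1 and 2 lay above it.

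Nrep, a small neuronal regeneration-related protein, had 2315, 1335 and 881 in DMSO, 4279, 3048 and 1874 at 1 µM, 4291, 3814 and 1773 at 1.5 µM and 1356, 1118 and 506 at 3 µM. The cultures kept the same order, 1 above 2 above 3, at every dose. Arhgef38 (ENSMUSG00000040969, chr3:133112278-133234949), an exchange factor for small GTPases, had 134, 79.0 and 154 in DMSO, 259, 238 and 215 at 1 µM, 376, 352 and 329 at 1.5 µM and 213, 188 and 116 at 3 µM. Fam179a (ENSMUSG00000045761, chr17:71673261-71729669), a TOG-domain microtubule protein now named Togaram2, had 41.0, 13.8 and 10.4 in DMSO, 66.4, 35.0 and 19.8 at 1 µM, 72.8, 70.7 and 36.2 at 1.5 µM and 10.3, 20.6 and 6.97 at 3 µM. Arhgef38 was the least spread of the 3 at 1.5 µM, with an SD of 0.10 log2 units against 0.69 for Nrep and 0.56 for Fam179a (n = 3).

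The remaining 3 genes are known by a clone or model name. Levels between genes compare only per length. At 1.5 µM the 23 genes ran from 7.53 ± 3.01 counts per 10 M and kb of annotated exon for Gm973 to 923 ± 117 for Sprr4 (SD, n = 3), with 843 ± 342 for Nrep and 147 ± 16.3 for Slc2a9. Gm973 (ENSMUSG00000047361, chr1:59516264-59636417) had 13.4, 6.91 and 22.9 in DMSO, 35.1, 32.9 and 55.2 at 1 µM, 36.4, 27.8 and 59.7 at 1.5 µM and 15.7, 11.9 and 1.90 at 3 µM. 4930431P03Rik had 28.1, 18.8 and 55.7 in DMSO, 58.7, 72.0 and 98.3 at 1 µM, 108, 131 and 162 at 1.5 µM and 43.8, 47.1 and 66.5 at 3 µM. 2810468N07Rik had 24.9, 33.6 and 59.5 in DMSO, 25.8, 41.7 and 59.4 at 1 µM, 44.6, 63.3 and 120.0 at 1.5 µM and 9.57, 18.4 and 23.4 at 3 µM. The 3 µM value of Gm973 in culture 3 was far below those of cultures 1 and 2, and 2810468N07Rik had the same order of cultures, 3 above 2 above 1, at every dose.

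The 1 µM libraries were not used by the rule and show where on the dose axis each gene had left its DMSO level. The 1 µM value lay above DMSO in all 3 cultures for 21 of the 23 genes (44.9% of the 12006 genes with a mean 1.5 µM value of at least 5), the exceptions being Wap and 2810468N07Rik. Since the genes were picked for low DMSO values, that arm of the comparison is not independent. The 1 µM value lay above 3 µM in all 3 cultures for 15 genes (48.7% of the 12006), and above both in all 3 cultures for 14 (18.0%). The 3 µM arm was chosen to be low as well, so these counts are not independent of the choice of genes either. It lay below 1.5 µM in all cultures for 16 genes (37.6%) and above it in all cultures for 0 (30.6%), where the 1.5 µM arm was chosen to be high.

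The share of the log2 difference between DMSO and 1.5 µM that was already present at 1 µM had a median of 61.6% and ran from 0.228% to 102%. It was at least 80% in 8 genes, namely Foxi3 (102%), Gm973 (102%), Slc2a9 (98.1%), Runx3 (95.2%), Nrep (92.8%), Sidt1 (89.6%), Gli1 (84.7%) and Syt9 (80.4%). It was under 50% in 7, among them Wap (0.228%), 2810468N07Rik (12.9%), Tmprss11f (35.7%), Oas1f (46.5%), Cel (46.7%) and Flg2 (48.5%). The rule selected on the difference that these shares are taken of, so they are a description.

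In edgeR's quasi-likelihood test 0 of the 23 genes passed at 1 µM against DMSO (0.242% of the 15316 genes tested passed), and 13 had an unadjusted p under 0.05. DESeq2 called 6 of the 22 genes it could adjust, all higher (3.42% of its genes called, 2.35% higher). Neither of these fits used the pairing of libraries by culture. Since the DMSO arm was chosen to be low within each culture, these counts and those below are not independent of that choice. With the culture as a block, 8 were called and all were higher (5.61% of genes called, 2.55% higher). These were Foxi3 (log2 fold change without the block 3.19 ± 0.68 SE), Sprr4 (3.99 ± 0.83), Runx3 (2.63 ± 0.54), Syt9 (2.05 ± 0.58), 4930431P03Rik (1.07 ± 0.37), Nrep (0.95 ± 0.49), Slc2a9 (0.93 ± 0.18) and Flg2, whose DMSO libraries are at 0. Their edgeR adjusted p-values were between 0.0904 and 0.498 without the block and between 0.00795 and 0.0252 with it. At the other end Wap had a log2 fold change of −0.12 ± 0.48 and 2810468N07Rik one of 0.03 ± 0.50 at 1 µM.

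**Figure D2:**
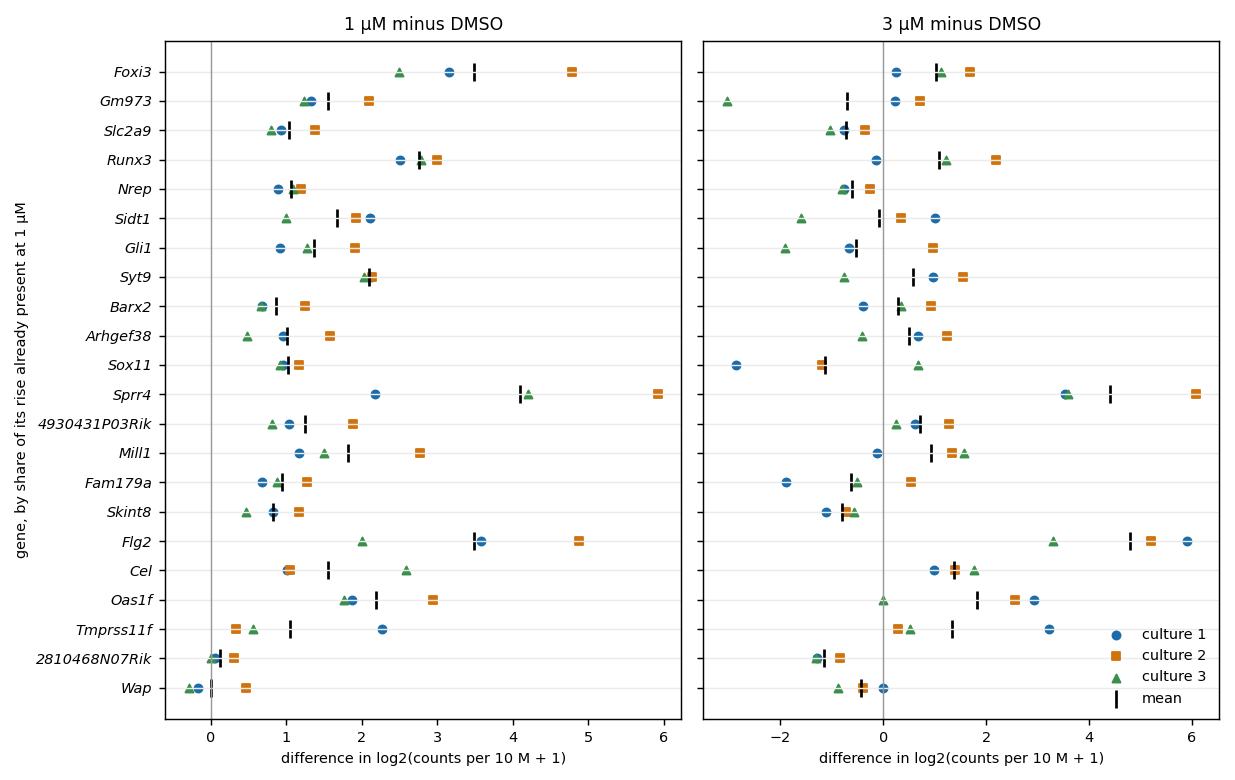
Difference of the 1 µM value (left) and of the 3 µM value (right) from the DMSO value of the same culture, in log2(counts per 10 M + 1), for 22 of the 23 genes. Symbols are cultures and the bar is their mean, with genes ordered by the share of their rise present at 1 µM. At 1 µM nearly all points lie right of 0, whereas at 3 µM 6 genes lie above DMSO in every culture and 5 lie below it in every culture.

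The order of 3 µM and DMSO was not set by the rule. Both arms were chosen to lie below 1.5 µM, however, so that the counts and tests between them are not independent of the choice of genes. The 3 µM value lay above DMSO in all 3 cultures for 6 genes (32.8% of the 12006 genes), which were Flg2, Sprr4, Tmprss11f, 4930431P03Rik, Foxi3 and Cel. It lay below DMSO in all 3 for 5 genes (43.9%), namely Nrep, Skint8, Wap, 2810468N07Rik and Slc2a9. The median difference over the 23 genes was 0.29 log2 units, with a range from −1.14 for 2810468N07Rik to 4.80 for Flg2.

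Of the 23 genes, 4 were called at 3 µM against DMSO (edgeR, 57.5% of all genes called), 3 of them higher (29.9% of all genes) and 1 lower (27.7%). Sprr4 was higher with a log2 fold change of 4.72 ± 0.84 (SE, adjusted p = 0.000937). Flg2 was higher as well (adjusted p = 0.00317), by at least 17.3-fold against the limit that 0 counts allow. Both calls held without any single one of the 12 libraries. Arhgef38 was higher by 0.71 ± 0.26 (adjusted p = 0.0381) and Slc2a9 fell by 0.53 ± 0.18 on the log2 scale (adjusted p = 0.0295). The call of Arhgef38 was lost when replicate 1 or 2 of DMSO, 1.5 µM or 3 µM or replicate 2 at 1 µM was left out (adjusted p up to 0.150), with only the 2 groups fitted (0.143), without the filter on low counts (0.0673) and with scaling by library size only (0.127). That of Slc2a9 was lost without replicate 1 or 3 of DMSO or replicate 2 or 3 at 3 µM (up to 0.112), and with only the 2 groups fitted (0.0772). Scaling by library size only, the scale on which the genes were chosen, moved the median log2 fold change of all genes from −0.03 to −0.23 and gave 2 higher and 2 lower, with Skint8 called lower (0.0397).

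With the culture as a block, 11 genes were called at 3 µM against DMSO (68.9% of all genes), 8 higher (34.1%) and 3 lower (34.8%). Those gained were Oas1f (adjusted p = 0.00465), 4930431P03Rik (0.00691), Runx3 (0.0238), Tmprss11f (0.0381) and Cel (0.0452) among the higher and 2810468N07Rik (0.00128) and Nrep (0.0155) among the lower. Leaving out 1 library without the block gave 2 calls (replicate 2 at 3 µM), 6 calls (replicate 3 at 3 µM) and 7 calls (replicate 3 at 1.5 µM). The share of all genes called in these fits was 48.2%, 59.8% and 57.0%, in that order. Sox11 had a log2 fold change of −0.01 ± 0.81 (adjusted p = 0.989), with 58.9 per 10 M in culture 3 and 2.05 and 8.12 in the others. Without that library it was called (adjusted p = 0.00885).

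The step from 1 to 3 µM shows the falling side of the curve with a dose that the rule did not use, although the 3 µM arm was chosen to be low. Of the 23 genes 8 were called (edgeR, 52.0% of all genes called), and all 8 were lower at 3 µM (24.2% of all genes were called lower). Foxi3 fell by 2.22 ± 0.65 on the log2 scale (SE, adjusted p = 0.0161), Gm973 by 1.76 ± 0.65 (0.0425), Sidt1 by 1.49 ± 0.52 (0.0349) and Slc2a9 by 1.47 ± 0.19 (0.000155). Runx3 fell by 1.46 ± 0.52 (0.0364), Gli1 by 1.45 ± 0.52 (0.0384), Skint8 by 1.45 ± 0.30 (0.00295) and Nrep by 1.33 ± 0.49 (0.0440). Foxi3, Runx3 and Gli1, 3 of the 5 transcription factors, are among them, and each of the 8 was lower at 3 µM than at 1 µM in all 3 cultures.

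Skint8 and Slc2a9 kept this call without any single one of the 12 libraries. The other calls each depended on at least 2 libraries. Foxi3 was no longer called when replicate 1 at 1 µM or replicate 2 at 3 µM was left out (adjusted p up to 0.0581), and Sidt1 when replicate 1 or 3 at 1 µM or replicate 2 or 3 at 3 µM was (up to 0.117). Runx3, Gli1, Nrep and Gm973 missed it in 5, 7, 7 and 8 of the 12 fits, with adjusted p-values up to 0.132, 0.0847, 0.136 and 0.120. With only the 2 groups fitted Gli1 (0.0589) and Gm973 (0.0670) also missed it, as did Nrep without the filter on low counts (0.0901). Leaving out replicate 1 at 1 µM gave 2 calls (47.2% of all genes called). There were 4 (41.7% to 55.4%) without replicate 3 at 1 µM, replicate 2 at 1.5 µM or replicate 2 or 3 at 3 µM. There were 5 (43.2% and 49.6%) without replicate 2 at 1 µM or replicate 1 at 1.5 µM. With the culture as a block 12 genes were called (66.0% of all genes), 11 lower (32.9%) and Flg2 higher (33.1% of all genes, adjusted p = 0.0117). The lower genes gained were 2810468N07Rik (0.00112), Fam179a (0.0192) and Syt9 (0.0308). Sox11 was called lower without replicate 3 at 3 µM (0.00158), against 0.335 with all libraries.

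On the side of the genes not called, Flg2 (1.56 ± 0.92), Sprr4 (0.73 ± 0.65), Oas1f (0.65 ± 1.15) and Tmprss11f (0.56 ± 0.60) had positive log2 fold changes from 1 to 3 µM. The other 19 genes had negative values. For Cel the fold change was −0.05 ± 0.73, less than its standard error.

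The level of several of the genes also differed between the cultures, each of which came from a different animal. Sample titles also mark cultures 1, 2 and 3 as med, min and max. What these marks stand for is not given in the titles, and their part cannot be told apart from that of the animal. In the test of culture with treatment in the model, 8 of the 23 were called (28.8% of all genes). Differences between cultures were thus common over all genes and are not a trait of the 23. Nrep had mean log2 values over the 4 treatments of 11.43, 11.00 and 10.11 in cultures 1, 2 and 3 (adjusted p = 0.000298, edgeR). For Barx2 these were 8.65, 7.84 and 6.73 (0.000620), for Oas1f 3.70, 2.85 and 1.25 (0.00847), for Flg2 4.31, 4.49 and 2.80 (0.0119) and for Fam179a 5.29, 4.91 and 4.02 (0.0319). These 5 were lowest in culture 3. In contrast, 2810468N07Rik (4.59, 5.20 and 5.84, 0.00135), Wap (3.92, 4.23 and 4.91, 0.0201) and 4930431P03Rik (5.75, 5.78 and 6.47, 0.0240) were highest in culture 3.

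Culture 3 was also the culture with the largest fibroblast share at every dose, from 2.33% of counts in DMSO to 0.485% at 3 µM, and culture 1 had the smallest, from 0.266% to 0.0291%. The part of the fibroblast share in the culture differences was not tested. The calls of Nrep, Barx2, 2810468N07Rik and Flg2 held without any single library. Oas1f lost its call when replicate 3 at 1.5 µM was left out (adjusted p = 0.0604). Wap and 4930431P03Rik each lost the call in 5 of the 12 fits and Fam179a in 8, with adjusted p-values up to 0.0799, 0.0711 and 0.102. Leaving out replicate 3 at 3 µM gave 15 calls, and leaving out replicate 1 of DMSO, 1 µM or 1.5 µM or replicate 3 at 1.5 µM gave 5. DESeq2 called 14 (32.2% of its genes).

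**Figure D3:**
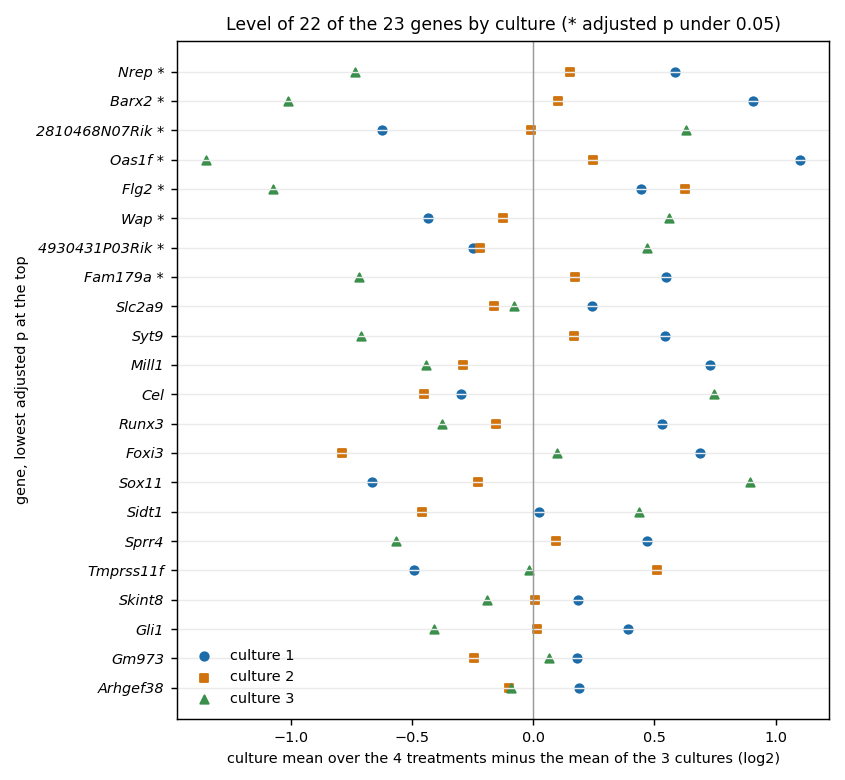
Mean log2(counts per 10 M + 1) of 22 of the 23 genes over the 4 treatments of a culture, minus the mean of the 3 cultures (x axis), with genes ordered by the adjusted p of the culture term (lowest at the top) and an asterisk where it is under 0.05. Nrep, Barx2, Oas1f, Flg2 and Fam179a are lowest in culture 3, while 2810468N07Rik, Wap and 4930431P03Rik are highest there.

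Close relatives were set beside the genes. In the Sprr, Flg, Tmprss11, Foxi, Runx, Gli and Mill families no relative had its highest mean at 1.5 µM, whereas in the Skint, Oas, Sidt, SoxC and Syt families at least 1 did. These relatives were chosen by symbol once the 23 genes were known, so their values are a description. Mean log2 values are given for DMSO, 1, 1.5 and 3 µM in that order (n = 3 each). Sprr4 had 1.08, 5.18, 7.74 and 5.48, whereas Sprr1a had 4.47, 9.51, 11.73 and 13.05, Sprr1b had 1.81, 6.51, 10.07 and 12.64, Sprr2d had 0.00, 2.60, 6.39 and 11.32 and Sprr2h had 0.85, 3.80, 7.68 and 10.78. All 12 other Sprr genes that passed the filter on low counts had their highest mean at 3 µM. Flg2 had 0.00, 3.48, 7.19 and 4.80, and its relative Flg, the filaggrin gene, had 0.42, 5.52, 8.95 and 9.10, with similar means at 1.5 and 3 µM. Tmprss11f had 2.92, 3.97, 5.86 and 4.26, while Tmprss11d had 0.64, 3.68, 5.19 and 7.59, Tmprss11e 0.85, 3.93, 5.90 and 6.93 and Tmprss11b 0.54, 3.28, 4.66 and 5.15, so that these proteases were highest at 3 µM.

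All 3 Skint relatives that passed the filter on low counts had their highest mean at 1.5 µM. Skint8 had 4.42, 5.24, 5.87 and 3.61. Skint1, which is needed for the selection of epidermal γδ T cells in the thymus, had 1.06, 2.55, 3.82 and 0.70 and Skint2 had 0.85, 1.14, 3.23 and 1.00. Both met the margin in every culture (smallest margins 1.75 and 1.63) and were kept out only by a mean 1.5 µM value under 5. Neither exceeded 52 counts in a library. Skint7 had 0.31, 1.77, 4.19 and 2.67 with an SD of 1.99 at 3 µM, and did not meet the margin.

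The paralogs of the transcription factors had different profiles or smaller spans. Foxi3 had 2.67, 6.16, 6.09 and 3.70, whereas Foxi1, a forkhead factor of ion-transporting epithelial cells, had 10.50, 9.88, 8.46 and 4.12 and was lower with each dose. Runx3 had 4.13, 6.89, 7.03 and 5.22. Runx1 had 11.21, 11.74, 11.68 and 10.34 and Runx2 had 8.51, 8.77, 8.35 and 7.01, both with their highest mean at 1 µM and their lowest at 3 µM, but with smaller spans than Runx3. In Runx1 the 1.5 µM library still exceeded DMSO and 3 µM in every culture (smallest margin 0.31). Gli1 had 4.36, 5.73, 5.97 and 3.82, while Gli2 (6.23, 6.75, 6.73 and 6.51) and Gli3 (7.64, 7.82, 7.75 and 7.39), the other hedgehog effectors, varied by less than 1 log2 unit. Of the SoxC relatives of Sox11, which had 4.69, 5.71, 6.34 and 3.57, Sox4 had 9.27, 9.46, 9.28 and 8.89 and Sox12 had 7.21, 7.41, 7.47 and 7.20, the latter with its highest mean at 1.5 µM as well (smallest margin −0.11).

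Of the immune-type relatives, Mill2 had 4.53, 4.26, 2.98 and 1.50 and lacked the intermediate maximum of Mill1, which had 3.48, 5.29, 6.51 and 4.41. Oas1f had 0.42, 2.61, 5.13 and 2.24, while Oas1a had 3.73, 3.89, 4.76 and 5.28, Oas1b 4.54, 4.19, 4.90 and 3.68 and Oas1c 5.01, 4.77, 4.88 and 4.65. Of the 8 Oas relatives that passed the filter on low counts, 5 (Oas1b, Oas2, Oas3, Oasl1 and Oasl2) had their highest mean at 1.5 µM, but in none of the 8 did the 1.5 µM library exceed DMSO and 3 µM in every culture, and none had a span of means as wide as that of Oas1f. Sidt2 had 11.08, 11.32, 11.48 and 11.26 against 5.77, 7.44, 7.64 and 5.68 for Sidt1. Genes of these families are close copies of each other, and reads shared between copies could have been split or dropped in counting.

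**Figure D4:**
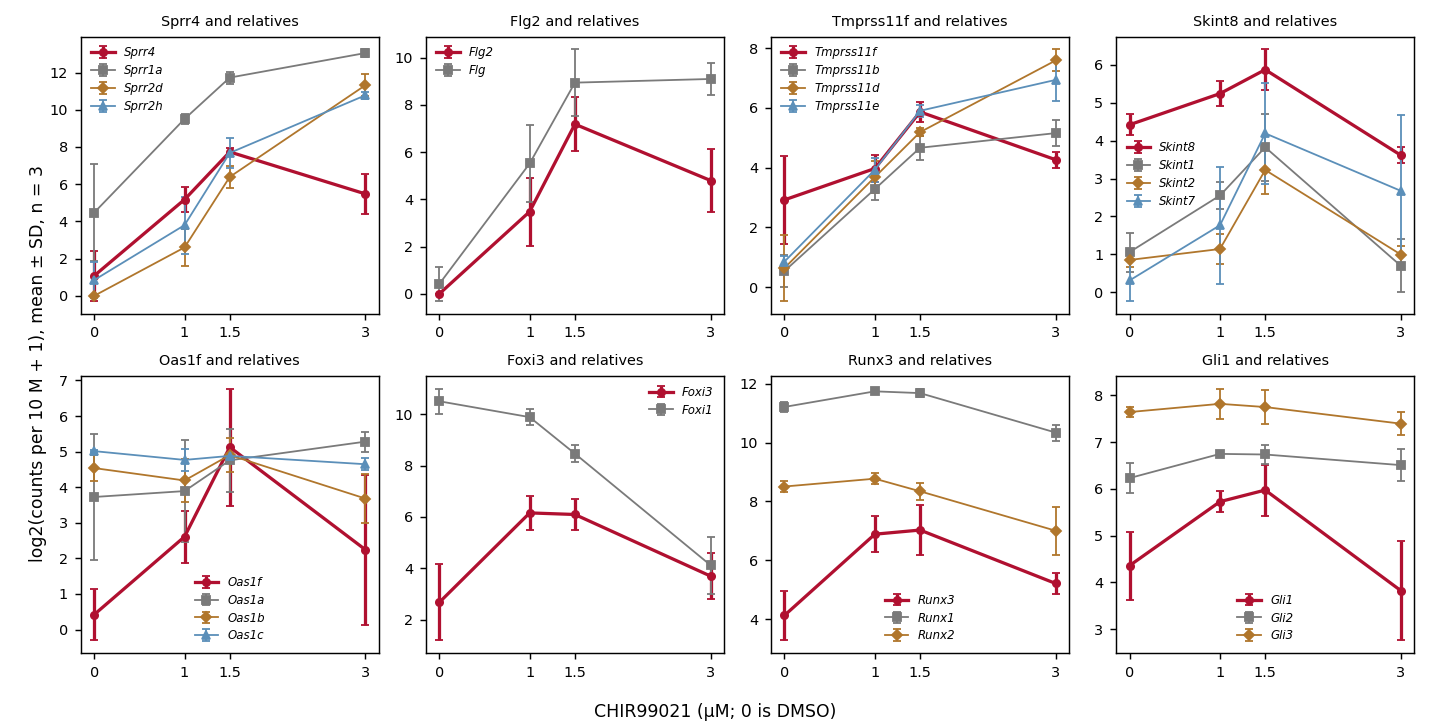
Mean log2(counts per 10 M + 1) ± SD (n = 3 cultures) against the CHIR99021 dose in µM for 8 of the genes (red) and their relatives by name. Sprr4 and Tmprss11f are lower at 3 than at 1.5 µM while their relatives have their highest means at 3 µM, the 4 Skint genes all have their highest mean at 1.5 µM, and Foxi1 is lower with each dose.

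Pathway genes were set beside the 23 as lists. The hedgehog genes are Gli1's own pathway. Ptch1, a hedgehog receptor and target gene, had mean log2 values of 8.27, 8.55, 8.64 and 8.06 in DMSO, 1, 1.5 and 3 µM. It was called neither at 1 nor at 3 µM against DMSO (edgeR adjusted p = 0.670 and 0.922). Gli1 is in a list of 34 measured hair follicle and skin appendage genes, of which 14 were higher and 2 lower at 3 µM against DMSO, and 14 higher and 4 lower at 3 against 1 µM. The median log2 fold change of the list was 0.68 at 3 µM against DMSO, against −0.03 over all genes, and −0.24 for Gli1 itself.

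Flg2 is in a list of 33 measured squamous differentiation genes, of which 32 were higher at 3 µM against DMSO and 31 were higher at 3 against 1 µM, with 0 lower in either comparison. At 1 µM against DMSO 6 of the 33 were higher. The median log2 fold change of the list was 8.45 at 3 µM against DMSO and 4.47 at 3 against 1 µM, where Flg2 had 1.56. Wap is in a list of 22 luminal genes, of which 3 were higher and 8 lower at 3 µM against DMSO, with a median of −0.64. Csn3, a casein, had 7.21, 6.64, 6.91 and 4.73, with an SD of 2.45 in DMSO. Lalba, the milk protein α-lactalbumin, had 8.63, 7.84, 6.34 and 4.29 and fell by 5.38 on the log2 scale at 3 µM against DMSO (adjusted p = 0.0116). Other milk genes of the list had the opposite direction. Ltf, which codes for lactoferrin, had 8.50, 9.16, 11.11 and 12.54 and was higher at 3 µM by 4.56 ± 0.94 (SE, adjusted p = 0.00223), and Csn2, β-casein, had 1.54, 1.53, 2.07 and 4.97 and was not called. None of the 23 is in the list of 26 measured WNT feedback and target genes, but the rule itself fixed this count, since Wif1, a secreted WNT inhibitor of that list, met the margin and the mean (6.32, 8.14, 8.63 and 7.15, smallest margin 1.04) and was left out by name. Rnf43, which codes for a ubiquitin ligase that removes WNT receptors, exceeded DMSO and 3 µM at 1.5 µM in every culture by less than the set margin (8.39, 8.94, 9.39 and 8.99, smallest margin 0.345). Axin2, the best-known gene of the list, had 4.83, 6.67, 8.08 and 9.41 and thus its highest mean at 3 µM.

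The 23 genes were not next to each other along the genome. The closest pair, Flg2 and Sprr4, starts 699947 bp apart in the epidermal differentiation complex on chromosome 3, and the next pair, Runx3 and Skint8, 23.2 Mb apart. The nearest gene on each side with a mean 1.5 µM value of at least 5 gave 46 neighbours, of which 0 belong to the 23. Their median margin was −0.20 log2 units, against −0.30 over all 12006 genes with a mean of at least 5, and 9 of the 46 had a margin above 0 (17.9% of the 12006 genes). Genes under that mean, such as Skint1 and Skint2, which met the margin, were not counted as neighbours whatever their position.

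In GENCODE M21, 10 of the 23 genes overlap a gene on the opposite strand and 2 overlap one on the same strand. The libraries were stranded, but whether counting used the strand is not given in the sources used here, so reads of such pairs could be shared. 2810468N07Rik overlaps Sox8, whose mean log2 values were 4.56, 4.42, 5.17 and 2.11 with a margin of 0.14. Gli1 overlaps Arhgap9, which had 5.91, 5.70, 5.12 and 3.55 and was thus lower with each dose. The overlapping genes Gm16976, Gm16224, Gm13381, Gm26732 and Gm15641 had at most 8 counts in any library.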

How the data were processed

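Poly(A) RNA of 12 mammary organoid libraries (3 cultures, each under 4 treatments) was sequenced from stranded libraries, per the labels' protocols. Per the submitters' processing notes, the tools were TopHat2 2.1, Bowtie 1.1.0, HTSeq and DESeq2 and the builds GRCm38 and mm10, with no roles given, and the strand setting of the counting is not given in the sources used here. The authors deposited raw counts per Ensembl gene for 25210 genes and a table of log2 values. The deposited log2 values equal log2(counts per 10 M + 1), with 0 values differing by more than 1e-06 on recomputation. Libraries held 10.1 to 24.5 M counts, and replicates differed by more than sampling noise (chi-square per degree of freedom at least 13.8).

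The genes were selected on the log2 table, and all tests used the counts. Genes passing edgeR's filterByExpr (15316) were fitted over all 12 libraries (edgeR 4.0.16, R 4.3.3, TMM scaling, robust quasi-likelihood F test, two-sided), 1 mean being fitted to each group. The SE of a log2 fold change was not estimated directly but taken as its absolute value divided by the square root of the F statistic. P-values were adjusted over all genes by Benjamini-Hochberg with a threshold of 0.05. The culture term was tested with treatment in the same model. DESeq2 1.42.0, the culture as a block, other scalings, no filter, fits of 2 groups and leaving out each library were alternatives. Each replicate number is an animal, so the numbers pair libraries. Deviations from group means correlated at 0.212 to 0.875 (median 0.574) in 18 pairs of libraries of the same culture. In 36 pairs of different cultures they correlated at −0.758 to 0.289 (median −0.231), so the ranges overlapped. Since deviations are taken from group means, positive values within cultures bring negative ones between cultures. The scripts were tested on simulated data.

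The 23 genes, the gene lists and the relatives were chosen with earlier results of these data known. Since there were fewer than 40, all 23 were to be named, but 1 is not reported here singly and counts only in the summaries. Annotation was GENCODE M21, which holds 24918 of the 25210 gene identifiers and all 23 genes. Coordinates are those of the deposited table. Upstream sequences were those of RefSeq for GRCm38.p6 and were found for 17 of the 23.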

Additional observations from a re-analysis of the deposited data

How the results depend on the processing

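The replicate block (culture) raised the number of the 23 genes called at 1 µM against DMSO from 0 to 8. At 3 µM against DMSO it rose from 4 to 11, and 12 instead of 8 were called at 3 against 1 µM. Over all genes the share called rose as well, from 0.242% to 5.61%, 57.5% to 68.9% and 52.0% to 66.0%. DESeq2 called 6 at 1 µM against DMSO (3.42% of its genes) and 14 instead of 8 between cultures (32.2% against 28.8%). Leaving out 1 library at a time gave 0 to 0 calls at 1 µM and 2 to 7 at 3 µM against DMSO. There were 2 to 8 at 3 against 1 µM and 5 to 15 between cultures. The share of all genes called ran from 0.0193% to 0.321%, 48.2% to 59.8%, 41.7% to 55.4% and 17.1% to 37.3%, in that order. The counts that follow cover only the genes and comparisons with a call in at least 1 fit. There, 788 values kept their side of the threshold, 70 lost a call and 59 gained one. None changed direction where it or the main fit was called. Differences never called were not counted, and some changed sign. For Sidt1 at 3 µM against DMSO the log2 fold change was −0.10 in the main fit and 0.06 with the block.

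The number of genes chosen depends on the rule's settings. A margin of 0.5 gave 53 genes, a margin of 1 gave 11 and a minimum mean of 7 gave 11. Asking the rule of only 2 cultures gave 27 genes without replicate 2, 42 without replicate 1 and 81 without replicate 3, with 22 of the 23 kept in each case. On TMM-scaled values 18 genes met the rule, all among the 23, and Arhgef38, Barx2, Cel, Sox11 and Wap did not. Low counts limit Oas1f and Flg2 most, with 3 and 0 counts in DMSO.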
